A study of Mus musculus with 6 samples.

Results

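The set described here is the pre-mRNA splicing machinery at the level of its messenger RNAs: SR proteins, hnRNPs, proteins of the spliceosomal snRNPs, the SF3a and SF3b complexes, U2AF, Tra2 and the Clk and Srpk kinases. Members were taken by gene symbol alone, and 68 of the 22274 genes listed in the deposited table met the rule, of which 67 had enough counts to be tested. They comprise 20 hnRNPs, 18 snRNP proteins, 11 SR proteins, 9 SF3a and SF3b subunits, 6 kinases and 4 Tra2 and U2af genes. One further row that the deposited table calls Hnrnpul2 carries another name in GENCODE M21 and held 1.77 counts over all libraries, so it was not used.

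RNA was sequenced in bulk from isolated epithelial cells of the mouse ileum, with 3 control and 3 Ogt knockout libraries. Knockout mice combined floxed Ogt with Olfm4-CreER, a tamoxifen-inducible recombinase driven from a gene of crypt stem cells, and control mice have the genotype label LoxP. Control titles name Olfm4 but no Cre, so the labels leave unstated whether controls carried the driver, and from them its effect and that of losing Ogt cannot be told apart. Tamoxifen was given to animals aged 2 months for 3 days in a row, and ileum was collected on day 10, when the ileal epithelium of the knockout was Ogt-negative per the labels. Whether each library stands for its own animal is not stated in the labels, and the p-values thus reflect the spread of these libraries alone, which may be technical.

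Introns are removed from pre-mRNA by the spliceosome, which assembles from small nuclear ribonucleoproteins (snRNPs): U1 pairs with the start of the intron, U2 with the branch site near its end, and U4, U5 and U6 join as a preformed complex. SR proteins and hnRNPs bind the pre-mRNA and steer which splice sites are used, and Clk and Srpk kinases phosphorylate the serine and arginine-rich tails of SR proteins. Ogt encodes O-GlcNAc transferase, which attaches single sugar residues to nuclear and cytoplasmic proteins, many RNA-binding proteins among them. In cultured cells the level of O-GlcNAc has been linked to the removal of retained introns, including those of the Ogt and Oga transcripts. The counts used here are per gene and do not separate spliced from intron-containing reads.

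Each library held between 14389429 and 18076479 estimated counts. Ogt stood at 140, 127 and 128 CPM (counts scaled to library size with TMM factors) in the controls and at 48.5, 43.0 and 36.0 CPM in the knockout libraries (log2 fold change -1.63 ± 0.13 SE, adjusted p = 0.00121). Oga, whose product takes O-GlcNAc off again, had 98.4, 112 and 114 CPM in control and 47.2, 35.2 and 34.5 CPM in knockout libraries (-1.47 ± 0.14, adjusted p = 0.00162). Summed markers of epithelial cells ranged from 14300 to 17700 CPM in control and from 13100 to 15700 CPM in knockout libraries. In edgeR 0 of these 6 markers were called, with 2 lower at an unadjusted p under 0.05. By DESeq2 1 was called lower, and with the replicate block 1. Summed markers of 6 types of other cells (lymphocytes, B and plasma cells, myeloid cells, fibroblasts, smooth muscle and endothelium) were present in every library at up to 1920 CPM, and in edgeR 2 of 5 fibroblast markers were higher (256 to 360 CPM summed in control, 365 to 426 CPM in knockout libraries), or 0 without knockout 3. All 5 smooth muscle markers had a log2 fold change below 0 (median -0.64; 820 to 1920 CPM summed in control, 733 to 1120 CPM in knockout libraries), of which 0 were called in edgeR, 2 by DESeq2, 2 with the replicate block and 3 without control 1. One endothelial marker was called higher on log2(FPKM + 1). Of 6 ileal enterocyte markers 3 were lower (19000 to 28800 CPM summed in control, 15400 to 19000 CPM in knockout libraries). That count was 4 without control 1, and 2 without control 3, without knockout 3 or on log2(FPKM + 1). Of all tested genes 9.37% were called lower and 9.33% higher in edgeR. Goblet markers were lower for 2 of 6 (6530 to 15100 against 4410 to 7790 CPM). Of these 1 was left without control 2, control 3 or knockout 2, and 0 without knockout 1 or knockout 3. Without control 1, 1 goblet marker was called higher. Paneth markers ranged from 224 to 2400 CPM in control and from 1210 to 3100 CPM in knockout libraries, and erythroid markers reached 53.4 CPM. No marker was at 0 in every library. In bulk RNA, fewer cells of a type and less RNA per cell cannot be told apart. The part of these cell types in the results below was not tested.

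Of the 67 tested members 9 rose, 1 fell and 57 did not pass the test (quasi-likelihood test in edgeR, Benjamini-Hochberg adjustment across the 14005 tested genes, threshold 0.05). The 9 make up 13.4% of the members, against 9.33% of the 14005 tested genes that were called higher, a share near that background; 18.7% of all tested genes were called in either direction. The single lower member is 1.49% of the members, against 9.37% of all tested genes called lower. Most members lay slightly above control: 53 of 67 (79.1%) had a log2 fold change above 0, against 46.3% of all tested genes, and the median was 0.21 against -0.05. Without control 1 the median of the members was 0.35 (59 above 0), and it was 0.35 with library size alone (62 above 0) and 0.36 on either FPKM scale (63 above 0), where the median of all genes was 0.09 to 0.12. The control and knockout CPM did not overlap, with the knockout higher, for 26 members (38.8%, against 19.6% of all tested genes), and with the knockout lower for 3 members (4.48%, against 20.2%). The log2 fold changes of members ran from -0.41 to 1.05, so Snrpd3 was the only member to reach a doubling.

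**Figure D1:**
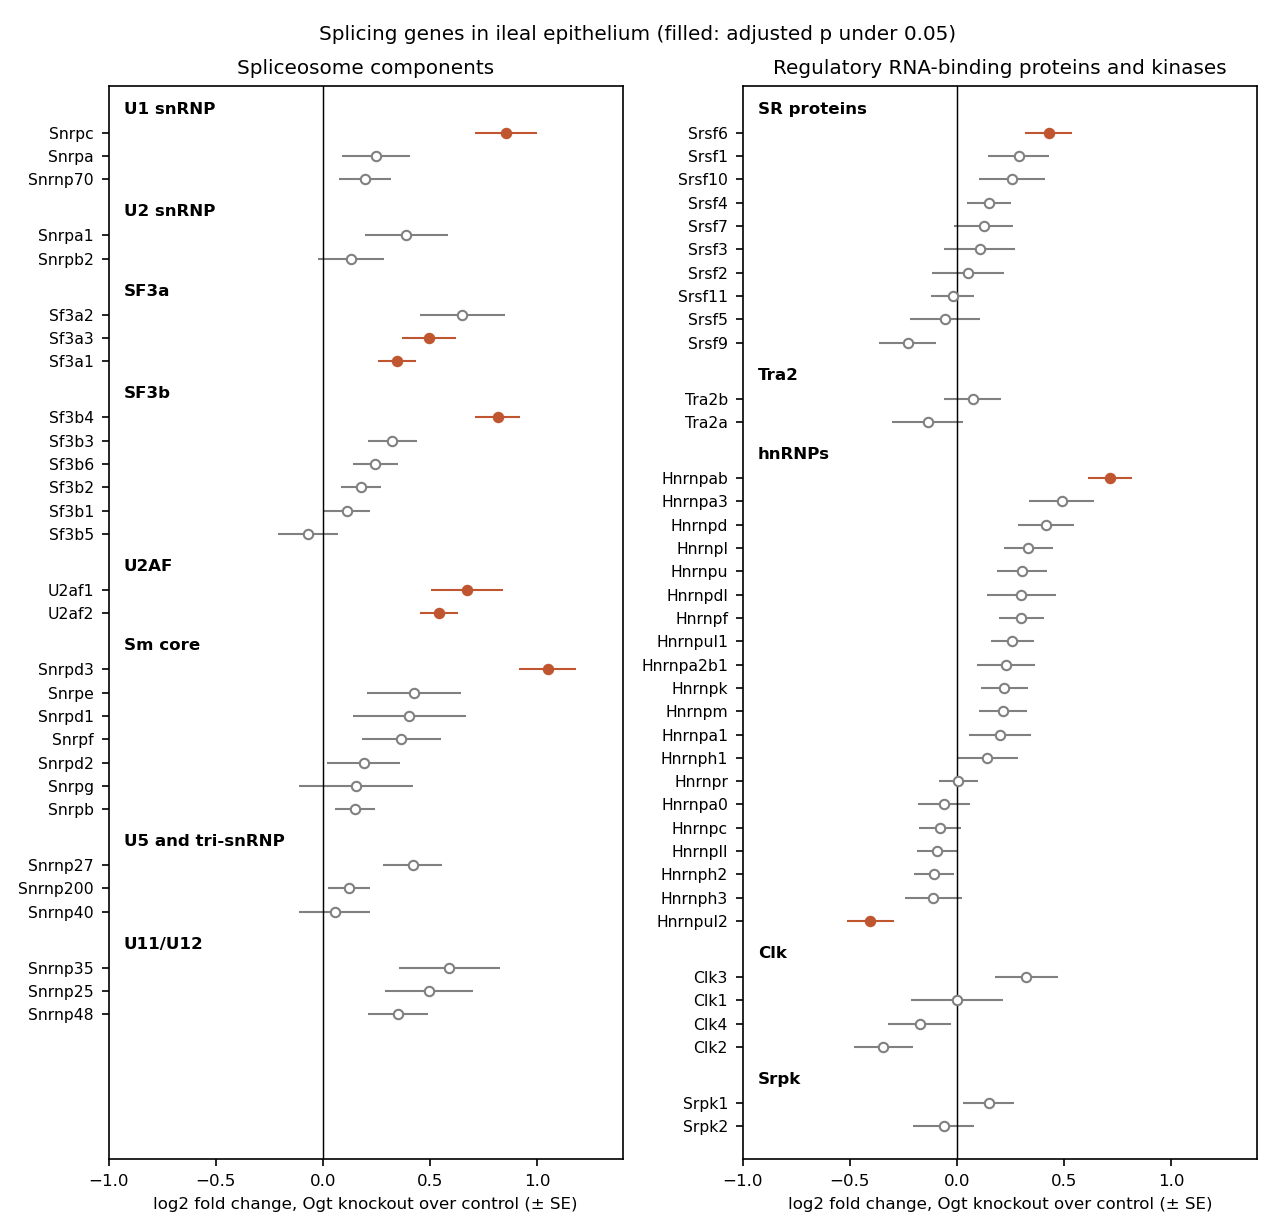
Log2 fold change of the 67 tested splicing members, Ogt knockout over control, with the SE as bars, grouped by role; filled points passed the test at adjusted p under 0.05. Filled points to the right of 0 number 9, and the single filled point to the left is Hnrnpul2.

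The U1 snRNP recognises the start of the intron, and of its 3 members Snrpc rose (33.3%, against 9.33% of all tested genes). Snrpc, which encodes the C protein of U1 that steadies the pairing of U1 with the splice site, stood at 22.5, 21.6 and 17.4 CPM in control and at 35.7, 41.6 and 33.7 CPM in knockout libraries. Every knockout library lay above every control, a fold of 1.81 (log2 fold change 0.85 ± 0.14, adjusted p = 0.00763). On the length-scaled FPKM deposited by the authors Snrpc went from 25.7 ± 3.79 (SD, n = 3) to 50.7 ± 5.60. Snrpa, encoding the A protein of U1, stood at 0.25 ± 0.16 and Snrnp70, encoding the U1 70K protein, at 0.19 ± 0.12 on the log2 scale, and neither passed (adjusted p = 0.304 and 0.296).

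Sm proteins form the ring around the RNA of most spliceosomal snRNPs. Of 7 Sm genes only Snrpd3 passed the test (14.3%, against 9.33% of all tested genes called higher). Its level was 31.4, 23.2 and 26.1 CPM in control libraries, against 58.6, 56.3 and 51.9 CPM after knockout. All 3 knockout libraries stood far above the controls, a fold of 2.07 (log2 fold change 1.05 ± 0.13, adjusted p = 0.00302). In FPKM the difference was smaller, from 18.2 ± 1.51 to 32.5 ± 5.60 (SD, n = 3). In GENCODE M21 exons of Snrpd3 and of Gucd1 on the other strand share up to 146 bases. Gucd1, more abundant than Snrpd3, stood at 180 ± 2.77 CPM in control libraries, against 196 ± 4.59 CPM after knockout. Its groups did not overlap, but it did not pass (0.12 ± 0.09, adjusted p = 0.388). Whether strand was used in counting is not stated, and without it reads of the shared bases cannot be told apart. The other Sm genes had log2 fold changes from 0.15 (Snrpb) to 0.42 (Snrpe), with adjusted p from 0.202 to 0.721. Snrpd1 shows their spread: control 1 stood at 40.3 CPM, above all 3 knockout libraries at 38.6, 31.3 and 39.0 CPM, while controls 2 and 3 were at 21.2 and 20.9 CPM. Snrpe, the most abundant snRNP member per length, was likewise at 36.6 CPM in control 1 and at 22.7 and 21.5 CPM in the others, against 42.6, 32.1 and 34.0 CPM in knockout libraries (adjusted p = 0.216).

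The promoters of Snrpd3, Snrpc and Hnrnpab are shown because these are the members with the largest rises for which RefSeq windows were at hand. Each sequence gives the 250 bases before the annotated start, read 5′ to 3′ on the gene's strand, from the RefSeq table on build GRCm38.p6, an older build than that of the counts. The windows are chr10:75517792-75518041 (plus strand) for Snrpd3, chr17:27839837-27840086 (plus strand) for Snrpc and chr11:51606882-51607131 (minus strand) for Hnrnpab. Capitals mark matches on either strand to any of the motifs searched. The ETS motif was spelled CCGGAAG. For the GC box, bound by Sp1, the letters were GGGCGG. The CCAAT box, bound by NF-Y, was searched by its own letters. E-boxes were matches to CACGTG, bound by proteins such as Myc. The CRE core, bound by CREB, was TGACGT. Motifs of NRF1 and of ZNF143 with THAP11 were searched as well.
Snrpd3: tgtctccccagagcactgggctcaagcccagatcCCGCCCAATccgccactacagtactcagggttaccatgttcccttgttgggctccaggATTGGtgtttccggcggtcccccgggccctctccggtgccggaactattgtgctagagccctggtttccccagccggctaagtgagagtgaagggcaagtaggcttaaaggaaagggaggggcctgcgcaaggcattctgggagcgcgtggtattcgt
Snrpc: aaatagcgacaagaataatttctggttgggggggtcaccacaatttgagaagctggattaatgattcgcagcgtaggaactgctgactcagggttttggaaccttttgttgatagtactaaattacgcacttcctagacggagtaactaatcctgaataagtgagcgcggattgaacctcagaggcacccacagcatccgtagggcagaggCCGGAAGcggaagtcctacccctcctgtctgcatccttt
Hnrnpab: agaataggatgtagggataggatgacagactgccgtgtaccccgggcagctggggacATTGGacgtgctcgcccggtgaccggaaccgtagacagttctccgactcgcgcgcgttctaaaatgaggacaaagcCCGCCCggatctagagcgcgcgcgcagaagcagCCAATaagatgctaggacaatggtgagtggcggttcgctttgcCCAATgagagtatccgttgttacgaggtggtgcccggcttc
The Snrpd3 window holds 1 GC box and 2 CCAAT boxes, the first of which overlaps the GC box, the Snrpc window holds 1 ETS motif, and the Hnrnpab window holds 1 GC box and 3 CCAAT boxes. Windows were at hand for 59 of the 68 members and for 7 of the 9 that rose. The ETS motif was found in 18 of the 59 members (30.5%), against 13.0% of 10853 such windows of tested genes, and the CRE core in 20.3% against 9.77%. The GC box was found in 74.6% against 57.5% and the CCAAT box in 40.7% against 36.3%. The E-box (6.78% against 8.13%) and the NRF1 motif (1.69% against 1.51%) were at similar shares, and no member held the ZNF143 and THAP11 motif (0.636% of all windows). Of the 7 higher members with a window, 3 held the ETS motif (Snrpc, Sf3a1 and Sf3a3), 3 the CCAAT box and 5 the GC box. These are letter matches in 1 window per gene, not binding sites.

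At the end of the intron, U2AF and the U2-associated SF3a and SF3b complexes recognise the splice and branch sites, and 5 of their 11 members in the set rose. Of all tested genes 9.33% were called higher. Both U2AF subunits were higher. U2af2, whose protein binds the pyrimidine-rich tract, stood at 82.2, 80.1 and 78.1 CPM in control and at 119, 113 and 118 CPM in knockout libraries. The libraries within each group lay close together, and the fold was 1.46 (0.54 ± 0.09, adjusted p = 0.00668). U2af1, whose protein reads the AG that ends the intron, stood at 32.3, 20.3 and 27.7 CPM in control and at 45.1, 40.3 and 42.5 CPM in knockout libraries (0.67 ± 0.17, adjusted p = 0.0292). The controls of U2af1 spread more widely, yet none reached the lowest knockout library. In FPKM, U2af2 went from 35.8 ± 1.82 to 57.4 ± 2.20 and U2af1 from 25.3 ± 6.86 to 43.6 ± 1.69 (SD, n = 3).

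Sf3b4, an RNA-binding subunit of SF3b, stood at 27.0, 29.8 and 25.4 CPM in control and at 46.9, 49.3 and 48.3 CPM in knockout libraries. The groups were clearly apart, with a fold of 1.76 (0.82 ± 0.11, adjusted p = 0.00327). The remaining SF3b members of the set did not pass: Sf3b3 stood at 0.33 ± 0.11, Sf3b6, whose protein sits at the branch adenosine, at 0.25 ± 0.10 and Sf3b2 at 0.18 ± 0.09, with adjusted p from 0.0832 to 0.224. CPM of these 3 genes did not overlap between the groups. Of the 6 SF3b members 4 (66.7%) were higher in the knockout without overlap, against 19.6% of all tested genes. Sf3b1, the most abundant subunit by CPM (308 ± 23.6 in control, 333 ± 17.1 in knockout; SD, n = 3) and the one that clasps the branch site, stood at 0.11 ± 0.11 (adjusted p = 0.509), and Sf3b5 at -0.07 ± 0.14, with a value above 0 under library size alone, FPKM, and without control 1 or knockout 1. In FPKM Sf3b1 (52.3 ± 4.58 in control) and Sf3b6 (47.9 ± 4.96) were the highest of the complex, ahead of Sf3b4 (13.6 ± 1.11).

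SF3a completes the branch-site particle, and 2 of its 3 subunit genes rose (66.7%, against 9.33% of all tested genes). Sf3a1 stood at 43.2, 43.0 and 43.8 CPM in control and at 54.3, 53.7 and 57.2 CPM in knockout libraries, a small but separate shift (0.35 ± 0.09, adjusted p = 0.0299). Sf3a3 stood at 28.9, 24.7 and 22.7 CPM in control and at 37.4, 34.5 and 35.5 CPM in knockout libraries (0.49 ± 0.13, adjusted p = 0.0299). Sf3a2 had a larger log2 fold change with a wider error, 0.65 ± 0.20, and missed the threshold (adjusted p = 0.0552); its estimated counts were not whole in 5 libraries. The calls of Sf3a1 and Sf3a3 were each lost when control 2, control 3 or any 1 knockout library was left out (adjusted p up to 0.115 and 0.0951), and that of U2af1 without control 3 or any 1 knockout library (adjusted p up to 0.0942). Those of Snrpd3, Snrpc, Sf3b4, U2af2 and Hnrnpab held whichever library was left out (adjusted p up to 0.0369).

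**Figure D2:**
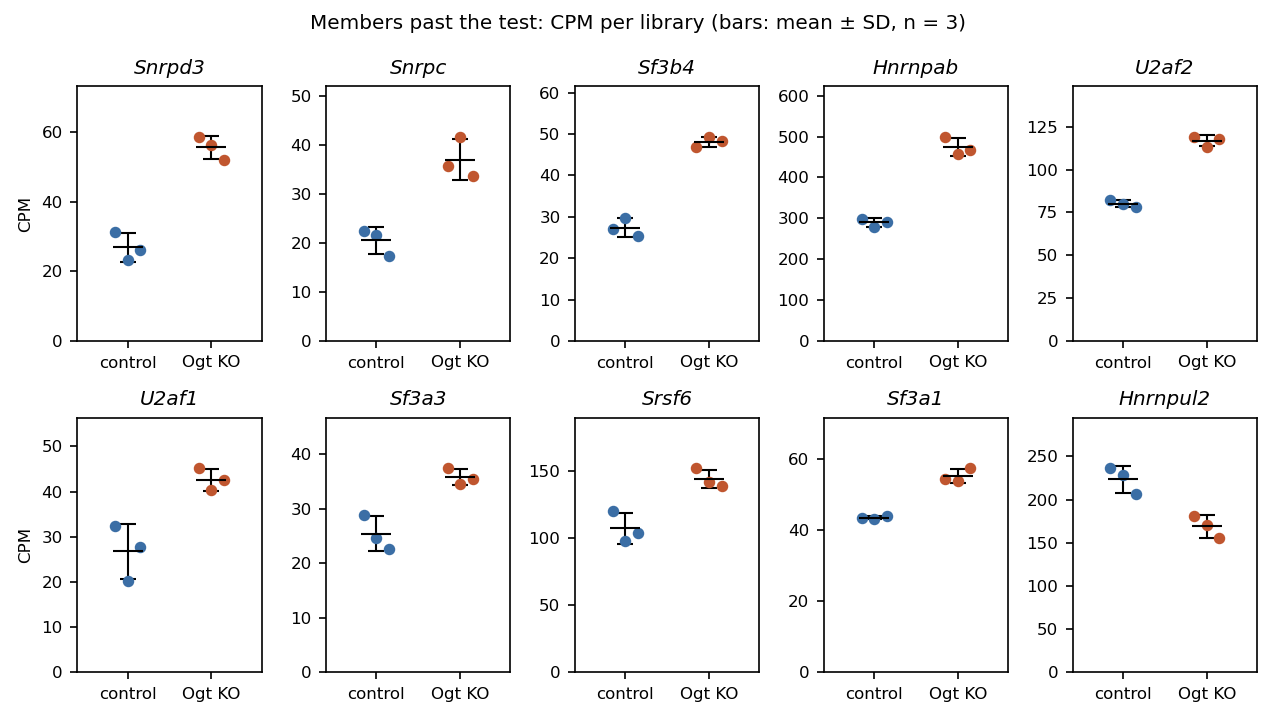
CPM in each of the 6 libraries for the 10 members that passed the test, with the mean ± SD of each group (n = 3); every axis starts at 0. In each panel the points of control and knockout libraries do not overlap, and only Hnrnpul2 is lower in the knockout.

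SF3a, SF3b and Sm genes aside, 5 members belong to U2, U5 and the U4/U6.U5 complex. Of these 0 passed the test in edgeR or DESeq2, with 1 at an unadjusted p under 0.05. Library size alone, the replicate block and both FPKM tests each called 1 of them, Snrnp27, and the fit without control 1 called 2, Snrnp27 and Snrpa1. Snrnp200, the helicase that unwinds U4 from U6, stood at 81.8 ± 5.37 CPM in control libraries, against 88.9 ± 4.95 CPM after knockout (SD, n = 3; log2 fold change 0.12 ± 0.10, adjusted p = 0.426). Snrnp40 of the U5 particle stood at 0.06 ± 0.17, and Snrnp27 of the U4/U6.U5 complex at 0.42 ± 0.14 (adjusted p = 0.0684). U2 proteins Snrpa1 (0.39 ± 0.19) and Snrpb2 (0.13 ± 0.15) also did not pass. Other proteins of these particles lie outside the symbol rule and are on the list of 64 other core spliceosome genes below. Of that list 23 rose and 2 fell (35.9% and 3.12%, against 9.33% and 9.37% of all tested genes). The rare U12-type introns are recognised by U11 and U12. Of the 3 genes of that particle that the symbol rule takes in, Snrnp35 was the lowest in counts. It stood at 2.92, 2.97 and 2.41 CPM in control libraries, against 4.15, 4.67 and 3.70 CPM after knockout. Snrnp25, Snrnp35 and Snrnp48 were higher in the knockout without overlap between the groups, as were 19.6% of all tested genes. Their log2 fold changes were 0.50, 0.59 and 0.35. All 3 lay at an unadjusted p under 0.05 in both edgeR and DESeq2, but 0 of the 3 passed in either (edgeR adjusted p from 0.116 to 0.133). Both FPKM tests called all 3, and 1 (Snrnp48) was called with library size alone and without control 1. Further minor spliceosome proteins, which the symbol rule leaves out, were taken from a list. Of its 8 tested genes 0 were called by edgeR or DESeq2. Armc7 (0.32 ± 0.13) lay at an unadjusted p under 0.05 in edgeR and was called in both FPKM tests. Zrsr2 stood at 0.29 ± 0.13 and the most abundant, Zcrb1, at -0.0088 ± 0.14. Rnpc3 of that list stood at -0.19 ± 0.14.

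SR proteins promote the use of nearby splice sites, and of 10 tested genes only Srsf6 rose (10.0%, against 9.33% of all tested genes). Srsf6 stood at 120, 98.1 and 104 CPM in control and at 152, 142 and 139 CPM in knockout libraries. All knockout libraries were above the controls, a fold of 1.35 (0.43 ± 0.11, adjusted p = 0.0315), and the call was lost without control 2, control 3 or any 1 knockout library (adjusted p up to 0.0938). Srsf5, the most abundant SR gene per length, was at 120 ± 8.91 FPKM in control and 126 ± 23.8 FPKM in knockout libraries (SD, n = 3). By CPM the controls of Srsf5 were at 194, 175 and 200 and the knockout libraries at 230, 166 and 152, so the groups overlapped (-0.06 ± 0.16, adjusted p = 0.837). Srsf1, the founding member of the family, stood at 235, 182 and 174 CPM in control libraries, against 264, 220 and 237 CPM after knockout (0.29 ± 0.14, adjusted p = 0.195). Control 1 of Srsf1 lay within the range of the knockout libraries. Srsf2 (0.05 ± 0.17) and Srsf3 (0.11 ± 0.17) also had their highest control in control 1, at 196 and 250 CPM, above 2 of the 3 knockout libraries for Srsf2 and above all 3 for Srsf3. Estimated counts of Srsf2 were not whole in any library. Srsf9 had the lowest value of the family, -0.23 ± 0.13 (adjusted p = 0.266). Srsf12 was not tested, with 2, 14 and 2 counts in control and 7, 5 and 7 counts in knockout libraries. The SR-like regulators Tra2a (-0.14 ± 0.16) and Tra2b (0.07 ± 0.13), which bind purine-rich exon enhancers, did not pass (adjusted p = 0.597 and 0.739).

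Among hnRNPs, which coat nascent transcripts and often oppose SR proteins, 1 of 20 rose and 1 fell. These are 5.0% each, against 9.33% of all tested genes called higher and 9.37% called lower. Hnrnpab stood at 299, 279 and 292 CPM in control and at 499, 458 and 468 CPM in knockout libraries. The rise was 1.64-fold (0.71 ± 0.10, adjusted p = 0.00470), and in FPKM the level went from 151 ± 9.94 to 275 ± 5.03 (SD, n = 3). Exons of Hnrnpab share up to 499 bases with Phykpl on the other strand in GENCODE M21, and Hnrnpab counts were not whole in any library. Phykpl itself rose from 7.63 ± 0.719 to 16.2 ± 2.11 CPM (1.08 ± 0.16, adjusted p = 0.00534), a difference of few CPM beside that of Hnrnpab; no source used here says that strand was used in counting, and without it reads of the shared bases cannot be told apart.

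Hnrnpul2, an hnRNP U-like protein, was the only member that fell. It stood at 236, 228 and 206 CPM in control and at 181, 171 and 155 CPM in knockout libraries, without overlap (-0.41 ± 0.11, adjusted p = 0.0377). Its call was lost when any 1 of the 6 libraries was left out (adjusted p up to 0.135) and with library size alone or FPKM (adjusted p up to 0.1). Its relatives Hnrnpu (0.31 ± 0.12) and Hnrnpul1 (0.26 ± 0.10) had the opposite sign and did not pass (adjusted p = 0.106 and 0.113).

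Over all 20 hnRNPs, 9 (45.0%) were higher in the knockout without overlap, against 19.6% of all tested genes. Of the hnRNPs not called, 5 lay at adjusted p between 0.0562 and 0.106, all higher and without overlap between the groups: Hnrnpa3, Hnrnpd, Hnrnpl, Hnrnpf and Hnrnpu. Hnrnpa3, the most abundant of them by CPM, stood at 473, 340 and 388 CPM in control and at 609, 507 and 569 CPM in knockout libraries (0.49 ± 0.15, adjusted p = 0.0562). Hnrnpd, known as AUF1 for its binding to AU-rich elements, stood at 0.42 ± 0.13 (adjusted p = 0.0582), and Hnrnpf, which binds runs of G, at 0.30 ± 0.10 (adjusted p = 0.0834). Per length, the most abundant hnRNP was Hnrnpa2b1, at 215 ± 33.9 FPKM in control and 276 ± 24.9 FPKM in knockout libraries (SD, n = 3). Its CPM overlapped between the groups, at 415, 334 and 333 in control and 458, 378 and 433 in knockout libraries (0.23 ± 0.14, adjusted p = 0.269). Hnrnpc, which binds runs of U, stood at 199 ± 10.7 CPM in control libraries, against 189 ± 7.12 CPM after knockout (-0.08 ± 0.10, above 0 with library size alone or FPKM), and Hnrnpr at 0.0064 ± 0.09.

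Of the 6 kinases 0 passed the test in edgeR or DESeq2, with 1 (Clk2, lower) at an unadjusted p under 0.05 in edgeR, and scaling by library size alone called 1 (Clk3, higher). Clk1, whose own transcript is known to retain introns, stood at 91.9, 126 and 72.7 CPM in control and at 112, 100 and 79.0 CPM in knockout libraries. All knockout values lay within the control range, with a log2 fold change of 0.0016 ± 0.22 (adjusted p = 0.996). Clk2 stood at 17.5, 17.6 and 15.5 CPM in control and at 13.2, 14.6 and 12.1 CPM in knockout libraries. These did not overlap, but the decrease missed the threshold (-0.34 ± 0.14, adjusted p = 0.123). Clk3 stood at 39.0, 43.0 and 36.2 CPM in control and at 57.4, 50.4 and 40.0 CPM in knockout libraries (0.32 ± 0.15, adjusted p = 0.162). Knockout 3 lay within the control range of Clk3, its counts were not whole in any library, and its exons overlap those of Edc3 on the other strand by up to 1117 bases. Clk4 stood at 24.6, 26.9 and 25.1 CPM in control libraries, against 26.9, 19.5 and 21.5 CPM after knockout (-0.17 ± 0.15, adjusted p = 0.444). Srpk1, which phosphorylates SR proteins in the cytoplasm, stood at 0.15 ± 0.12 (adjusted p = 0.422) and the related Srpk2 at -0.06 ± 0.14 (adjusted p = 0.795). Per length Clk1 was the most abundant of the 6, at 52.4 ± 14.2 FPKM in control, and Srpk2 the least, at 2.28 ± 0.278 FPKM (SD, n = 3).

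**Figure D3:**
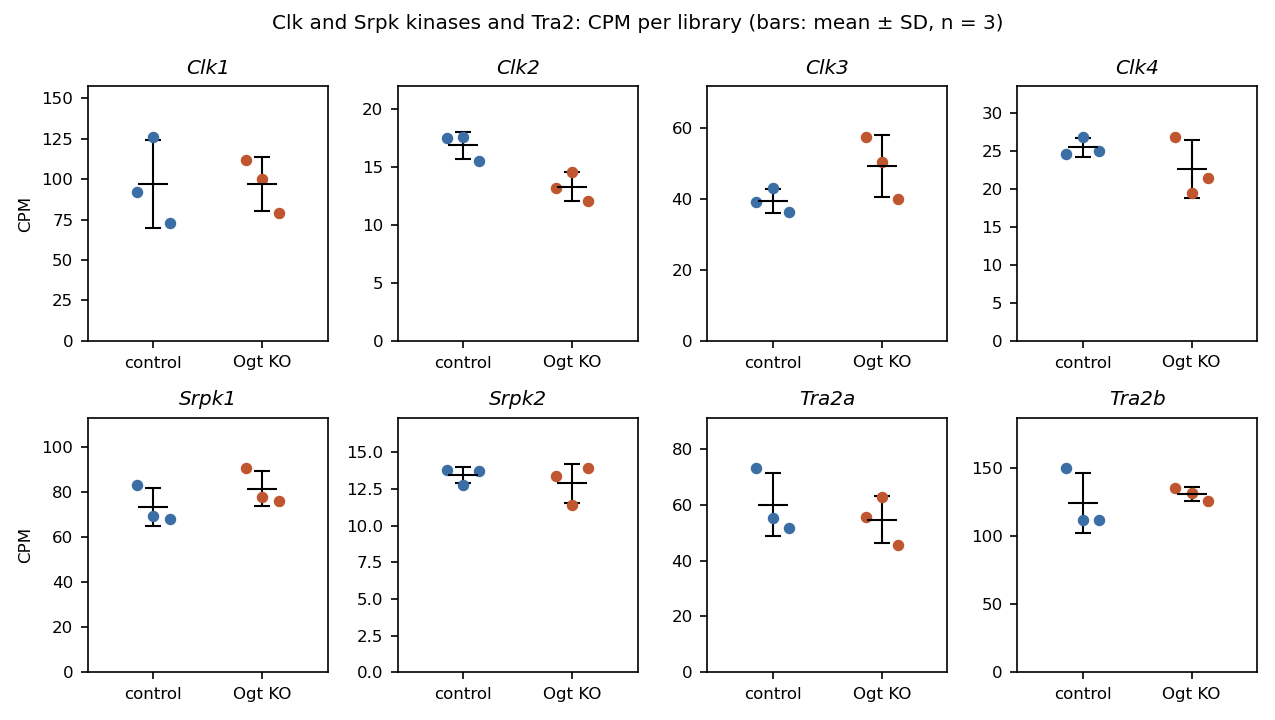
CPM in each library for the 4 Clk genes, the 2 Srpk genes and the 2 Tra2 genes, with the mean ± SD of each group (n = 3); every axis starts at 0. Control and knockout points overlap in every panel but that of Clk2, and none of these genes passed the test.

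Genes of the same machinery outside the symbol rule were taken from further lists. These lists were chosen with earlier results of these data known, so their shares are not independent of the data. Of 64 other core spliceosome genes 23 rose (35.9%, against 9.33% of all tested genes), 2 fell and 39 did not pass, with a median log2 fold change of 0.33. Xab2, a component of the catalytic spliceosome, stood at 25.3, 26.3 and 22.9 CPM in control and at 44.3, 45.3 and 46.0 CPM in knockout libraries (0.86 ± 0.10, adjusted p = 0.00288). Prpf19, the ubiquitin ligase at the heart of the complex that activates the spliceosome, rose as well (0.69 ± 0.10, adjusted p = 0.00406), as did Smu1 (0.73 ± 0.10, adjusted p = 0.00458). Phf5a, a subunit of SF3b that the symbol rule leaves out, was chosen after its values were seen. It stood at 29.6, 26.9 and 22.2 CPM in control and at 47.1, 56.1 and 46.6 CPM in knockout libraries (0.93 ± 0.14, adjusted p = 0.00536). Ddx5, the most abundant gene of the list, is an RNA helicase and stood at -0.04 ± 0.12 (adjusted p = 0.849). The 2 that fell, Rbm39 (-0.44 ± 0.12, adjusted p = 0.0397) and Cwc15 (-0.44 ± 0.11, adjusted p = 0.0293), lost their calls when any 1 library was left out (adjusted p up to 0.131 and 0.112) and with library size alone or FPKM. Without 1 library the number of higher genes on this list ran from 12 to 34.

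Of 20 SR-related proteins and exon junction complex genes 6 rose, against 9.33% of all tested genes. The count was 4 without control 2, control 3 or knockout 3, 3 without knockout 1 or knockout 2, 9 without control 1, and 10 with library size alone or FPKM. The exon junction complex is left on mRNA where an intron was removed. Its core helicase Eif4a3 stood at 44.4, 39.8 and 41.4 CPM in control and at 86.7, 88.1 and 71.5 CPM in knockout libraries, a fold of 1.96 (0.97 ± 0.11, adjusted p = 0.00264). Its partners Rbm8a (0.73 ± 0.12) and Magoh (0.56 ± 0.13) rose too, as did Rnps1 (0.51 ± 0.10), and Magoh lost its call without control 2, control 3 or any 1 knockout library (adjusted p up to 0.0922). Of 39 other regulators of alternative splicing 3 rose (7.69%) and 1 fell (2.56%), shares below those of all tested genes. These were Fubp1 (0.72 ± 0.12), Pspc1 (0.71 ± 0.15), Pcbp1 (0.40 ± 0.11) and the lower Rbm5 (-0.44 ± 0.11), while the most abundant, Pcbp2, stood at -0.01 ± 0.12. Rbm5 lost its call without any 1 library (adjusted p up to 0.109), Pcbp1 without any 1 but control 1 (up to 0.141), and Pspc1 without control 3, knockout 2 or knockout 3 (adjusted p up to 0.0701). Of 9 tested kinases other than Clk and Srpk 2 rose (22.2%, against 9.33% of all tested genes). These were Dyrk3, a kinase that acts on nuclear speckles, from 1.6 ± 0.252 to 5.55 ± 1.4 CPM (1.79 ± 0.29, adjusted p = 0.00623), and Cdk11b (0.58 ± 0.14, adjusted p = 0.0234). Dyrk1b stood at -0.30 ± 0.15. The call of Cdk11b was lost without control 3, knockout 1 or knockout 2 (adjusted p up to 0.0884).

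Control 1 held more RNA of splicing genes than the other controls. The median log2 difference of the 67 members from the control mean was 0.139 in control 1, -0.077 in control 2 and -0.060 in control 3, against 0.284, 0.185 and 0.205 in the knockout libraries. Over all tested genes the same medians lay between -0.026 and 0.004. SR genes overlapped between the groups, with control 1 at 0.214 and the knockout libraries at 0.259, 0.065 and 0.012. So did the kinases, at 0.013, 0.068 and -0.108 in the controls and 0.159, -0.056 and -0.103 in the knockout libraries. The hnRNPs overlapped too, with control 1 at 0.1 and knockout 2 at 0.084. SF3a and SF3b genes were apart, with control 1 at 0.103 and the lowest knockout library at 0.197. For snRNP genes, also apart, these were 0.212 and 0.253. A list of 22 proliferation genes stood at 0.301, -0.485 and 0.158 in the controls and at 0.506, 0.309 and 0.639 in the knockout libraries. Of that list 3 genes rose (13.6%, against 9.33% of all tested genes), Cdt1 (0.66 ± 0.15), Birc5 (0.66 ± 0.18) and Rrm2 (0.72 ± 0.20), while Pcna stood at 0.02 ± 0.14. These 3 calls were lost without control 2 or any 1 knockout library, and those of Birc5 and Rrm2 also without control 3 (adjusted p up to 0.129). The count of higher genes on the list ran from 0 to 10 with 1 library left out, the 10 without control 1, and was 9 with the replicate block. The part of proliferating cells in the levels of the splicing genes was not tested.

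**Figure D4:**
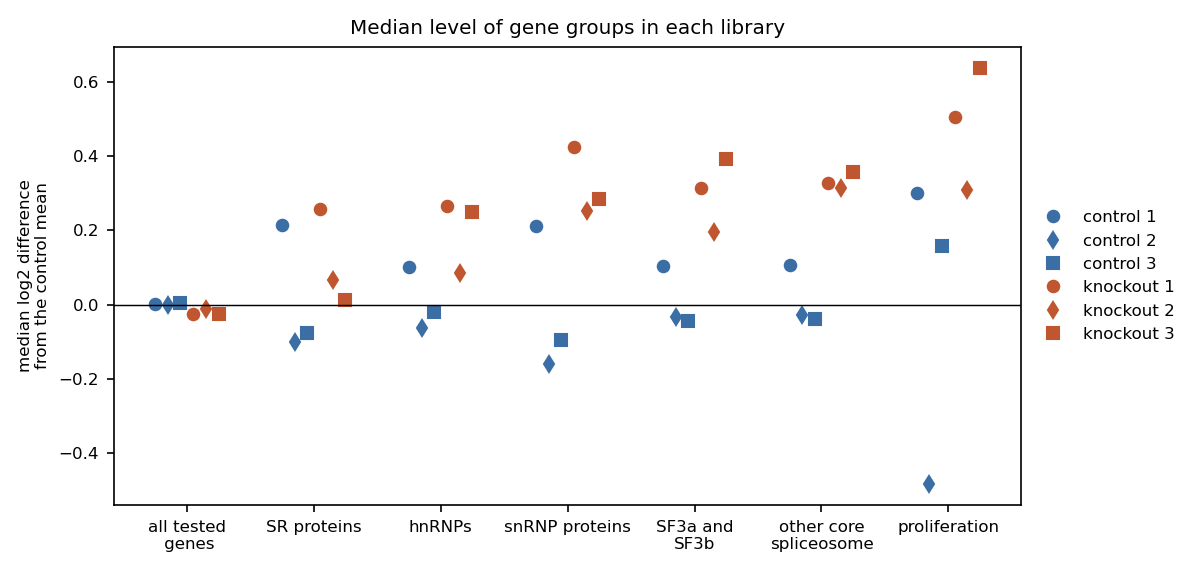
Median log2 difference from the control mean over the tested genes of each group, 1 point per library (blue, control; red, knockout). Control 1 stands above the other controls for SR, hnRNP, snRNP, SF3, other core spliceosome and proliferation genes. Control 2 is the lowest library for proliferation genes at -0.485.

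Without control 1, 26 members were higher and 0 lower (edgeR), when 13.6% of all tested genes were higher and 9.63% lower; at an unadjusted p under 0.05, 1 member (Hnrnpul2) was lower in that fit. Of the 10 members called with all libraries 9 were among the 26. Leaving out any other library gave 5 or 6 higher members and 0 lower. With control 2, control 3, knockout 1, knockout 2 and knockout 3 left out in turn, 6.37%, 4.51%, 5.31%, 4.23% and 3.87% of all tested genes were higher and 5.5%, 3.94%, 6.29%, 3.75% and 3.25% lower. Each time 1 member was lower at an unadjusted p under 0.05, or 2 without knockout 2. Snrpd1, Snrpe, Srsf1, Srsf10 and Hnrnpa2b1 were among those called only in the absence of control 1 or, for Snrpe, also with the replicate number as a block. Scaling by library size alone, which moved the median of all tested genes from -0.05 to 0.09, gave 21 higher and 0 lower members, and 14.6% of all tested genes were then higher and 6.13% lower. Tests on log2(FPKM + 0.1) and log2(FPKM + 1) each gave 19 higher and 0 lower members, with 15.9% and 16.3% of all tested genes higher and 6.02% and 6.14% lower. The DESeq2 Wald test gave 13 higher members and 1 lower, against 11.1% and 10.3% of all genes, and the replicate block gave 16 and 1, against 12.3% and 12.0%.

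**Figure D5:**
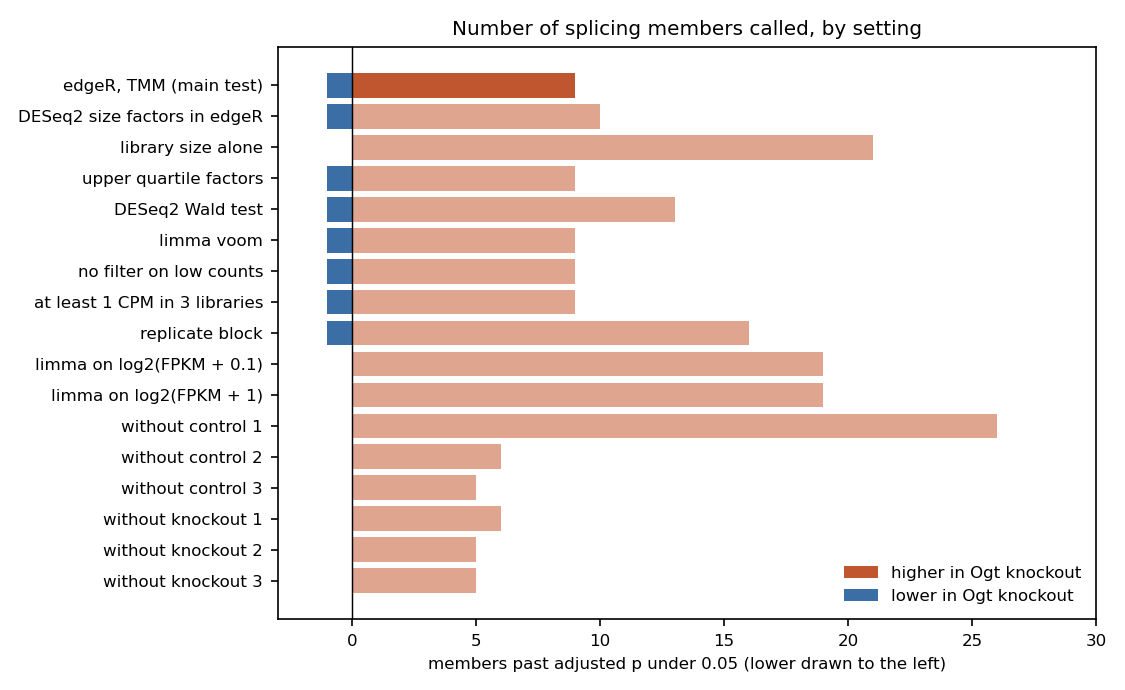
Number of splicing members past adjusted p under 0.05 in each setting, higher in the knockout to the right and lower to the left. The count of higher members runs from 5 to 26 and is 9 in the main test.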

How the data were processed

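RNA was measured by sequencing in 3 control and 3 Ogt knockout libraries, grouped by sample title. Per the labels' protocols, library preparation used NEBNext Ultra RNA reagents. The authors deposited estimated counts and FPKM per gene, per the file headers; between 7.68% and 8.09% of counts per library were not whole (tolerance 0.001) and were rounded. The builds GRCm39 and mm39 are named in the submitters' processing notes, while aligner, counter, annotation and gene lengths are not given in the sources that were used here. Gene IDs were named from GENCODE M21 for 22219 of 22274 rows.

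Genes passing filterByExpr (minimum count 10, minimum total 15) were tested with edgeR 4.0.16 in R 4.3.3 (TMM scaling, robust quasi-likelihood test), with Benjamini-Hochberg adjustment over all 14005 genes and a threshold of 0.05. SE is that of the log2 fold change, taken in edgeR as its absolute value divided by the square root of the F statistic. The procedure was tested on simulated data with 200 changed genes. CPM were scaled with TMM factors. Alternatives used DESeq2 1.42.0, limma 3.58.1 (voom, or log2(FPKM + 0.1) and log2(FPKM + 1) with 1 FPKM in 3 libraries), other scalings and filters, a replicate block and each library left out. Depth was between 14389429 and 18076479 counts per library.

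The genes named are Ogt, Oga, the called members, the Clk, Srpk, Tra2 and U2af genes, the most abundant member per length of each family, and, for each further list, its most abundant gene and the 3 of lowest adjusted p; other members were named after their values were seen. The members and lists were chosen with earlier results of these data known.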

Additional observations from a re-analysis of the deposited data

How the results depend on the processing

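With 9 members higher and 1 lower in the main test, the count of higher members was 21 with library size alone, 19 with log2(FPKM + 0.1) and 19 with log2(FPKM + 1), and 0 were lower in those 3; at an unadjusted p under 0.05, 1 was lower in each. The replicate number as a block gave 16 higher and 1 lower member. The block rests on a number only: deviations from the group means correlated at 0.274, 0.253 and 0.084 between same-numbered libraries, although every library correlated best with its own number. Leaving out 1 library at a time gave from 5 to 26 higher and from 0 to 0 lower members (edgeR), from 19 to 55 called genes on the other splicing lists (39 with all libraries) and from 1009 to 3304 called genes in all (2619 with all libraries). The cause of these shifts was not tested.

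Some log2 fold changes near 0 changed sign: 9 members with library size alone, 10 on either FPKM scale, and from 1 to 6 with 1 library left out. Sf3b5 and Hnrnpc went to 0.0695 and 0.0559 with library size alone and to 0.0634 and 0.0429 with log2(FPKM + 0.1). Library size alone gave Srpk2 0.0741, Srsf5 0.0706, Ddx5 0.0961, Pcbp2 0.1279, Zcrb1 0.1203 and Pnrc2 0.0296. With log2(FPKM + 0.1) the values were 0.2267 for Srpk2, 0.0029 for Tra2a, 0.0580 for Srsf5, 0.1110 for Ddx5, 0.1404 for Pcbp2, 0.0964 for Rnpc3 and 0.1215 for Zcrb1, and with log2(FPKM + 1) they were 0.1675, 0.0026, 0.0576, 0.1106, 0.1397, 0.0853 and 0.1186. DESeq2 size factors gave Pcbp2 0.0131 and Zcrb1 0.0083, the DESeq2 Wald test 0.0149 and 0.0096, and a filter of 1 CPM gave Clk1 -0.0026. With 1 library left out, Clk1 ran from -0.1338 to 0.2648, Srpk2 from -0.1157 to 0.0218, Tra2a from -0.2471 to 0.0725, Srsf5 from -0.2576 to 0.0636, Ddx5 from -0.0937 to 0.0261, Pcbp2 from -0.0482 to 0.1159, Zcrb1 from -0.1189 to 0.0995 and Pcna from -0.1113 to 0.1489.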

Other observations

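Nonsense-mediated decay removes transcripts with early stop codons, many of which come from alternative splicing. Of 13 tested genes of that pathway 2 rose (15.4%, against 9.33% of all tested genes). Smg8, a regulator of the kinase that acts on Upf1, went from 13.0 ± 1.18 to 31.6 ± 1.44 CPM (SD, n = 3), a fold of 2.43 (log2 fold change 1.28 ± 0.13 SE, edgeR adjusted p = 0.00163). Nbas stood at 23.6, 21.6 and 22.6 CPM in control and at 41.7, 48.8 and 40.5 CPM in knockout libraries (0.95 ± 0.12, adjusted p = 0.00288). Upf1, the central helicase, stood at 0.32 ± 0.13 (adjusted p = 0.122) and Pnrc2, the most abundant per length, at -0.10 ± 0.10 (adjusted p = 0.510).

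The deposited count divided by the deposited FPKM gives, up to a constant per library, the transcript length the authors' quantification assigned to a gene, which moves when the mix of isoforms moves. This measure was chosen after the data were seen. Of 6676 genes 0 passed in limma (smallest adjusted p = 0.081), with 434 (6.50%) at an unadjusted p under 0.05. Of 64 members 0 passed and 9 (14.1%) lay at an unadjusted p under 0.05. For Srsf6 the centred length was 1.11, 1.12 and 1.15 in control and 1.28, 1.20 and 1.27 in knockout libraries (limma adjusted p = 0.286). For Snrpd3 it was 0.646, 0.539 and 0.550 in control and 0.659, 0.701 and 0.891 in knockout libraries (limma adjusted p = 0.745), so its rise in FPKM was smaller than that in CPM.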
